A study of Mus musculus with 4 samples.

Results

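Among 40915 liver leukocyte nuclei profiled by 10x Multiome, 89 nonclassical monocyte-like nuclei were examined, 32 of 14282 at D0 and 57 of 26633 at D5. They were chosen on their RNA: a nucleus with at least 1000 UMIs (unique molecular identifiers, that is, counted RNA molecules) was kept if Ace, Treml4, Cd300e and Spn together reached 3 UMIs. It also had to hold at most 1 UMI summed over Txk, Ncr1 and Cd3e (NK and T cells), over Xcr1 and Clec9a (type 1 conventional dendritic cells), over Siglech and Grm8 (plasmacytoid dendritic cells) and over Cd209a and Mgl2 (type 2 conventional dendritic cells), and at most 2 UMIs over C1qa, C1qb and C1qc (macrophages). Values of these 16 genes in the gated nuclei follow from that choice and are given only as description. All other nuclei of the same library with at least 1000 UMIs, called other nuclei, served as the comparison.

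The study compared liver immune cells of C57BL/6J mice, which its methods describe as young adult males, at steady state (D0) and early in cholestasis (D5), the latter after 5 days on chow with 0.1% DDC (3,5-diethoxycarbonyl-1,4-dihydrocollidine), a compound that injures bile ducts. Live CD45+ CD64- CD11c+ cells were sorted from the liver, nuclei were extracted, and RNA and open chromatin (ATAC-seq) were read from the same nuclei. All groups share this sort, which leaves out CD64+ macrophages and cells without surface CD11c, so the libraries do not describe all hepatic monocytes. Each day is 1 library, and the number of mice behind it is not given in the sources used here, so a difference between days is also a difference between 2 libraries and no test was possible. Intervals are exact 95% intervals for counting error only.

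Nonclassical monocytes, also called patrolling or Ly6C-low monocytes, are blood monocytes that crawl along the vessel wall, take up particles and dying cells and bind immune complexes through Fc receptors. In mice they arise largely from Ly6C-high classical monocytes in a conversion that depends on the nuclear receptor Nr4a1 and on C/EBPβ, and they need Csf1r signals to survive. The genes of the gate belong to this program: Ace encodes angiotensin-converting enzyme, Treml4 a receptor that binds dying cells, Cd300e an activating receptor of monocytes, and Spn the sialoglycoprotein CD43.

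The label was checked against genes that the gate did not use. Of 24 other genes associated with Ly6C-low monocytes, the monocyte program, 21 were higher in gated than in other nuclei in both libraries, against 38.1% of the 2347 genes with at least 20 UMIs in the gated nuclei. Their summed level was 11800 CPM (the usual counts-per-depth unit, UMIs scaled to the same total in every group of nuclei) in gated and 4350 CPM in other nuclei at D0, and 8610 CPM against 3970 CPM at D5. Within single nuclei, these genes took 9.93 to 287 of 10000 UMIs at D0, with a median of 131, and 31.2 to 264 at D5, with a median of 111. The median of other nuclei was 40.7 at D0 and 37.5 at D5, and 22 of the 32 gated nuclei at D0 and 43 of the 57 at D5 exceeded the 95th percentile of other nuclei. Since these genes are read from the same RNA as the gate, this describes the selection and is no independent test.

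**Figure D1:**
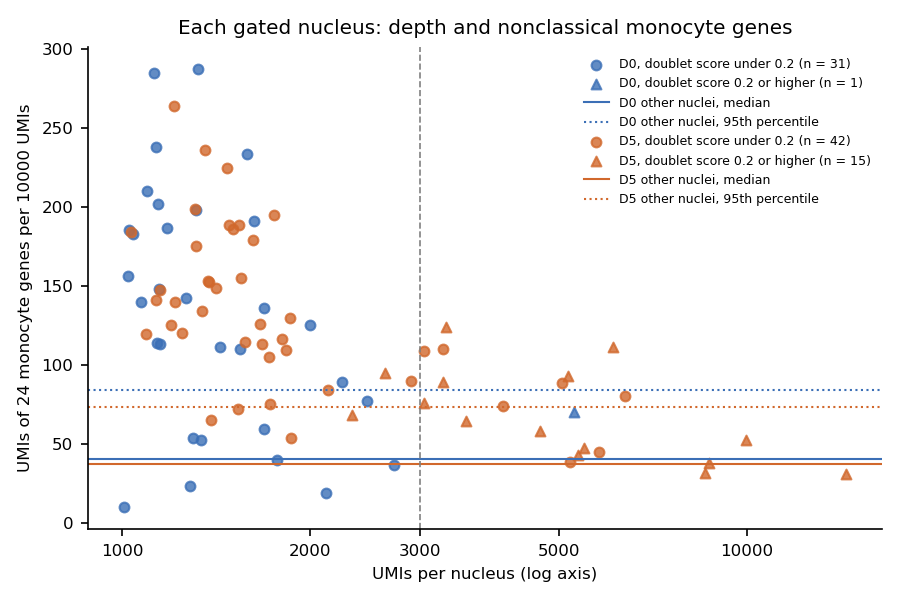
Each point is 1 gated nucleus, with its total UMIs on a log axis and the UMIs of the 24 monocyte program genes per 10000 UMIs on the vertical axis, for D0 and D5; lines mark the median and the 95th percentile of other nuclei. At D5 20 of 57 nuclei lie at 3000 or more UMIs, most of them with a lower share of program genes than the smaller nuclei, whereas at D0 only 1 of 32 does.

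Both remaining markers named for these cells were sparse. Eno3, muscle enolase, had 6 UMIs at D0 and 10 at D5, or 119 CPM against 16.2 CPM in other nuclei at D0 and 57.9 CPM against 36.5 CPM at D5. Pglyrp1, a peptidoglycan recognition protein, had 6 and 15 UMIs, or 119 CPM against 25.7 CPM at D0 and 86.9 CPM against 36.3 CPM at D5. Thinned to 1000 UMIs per nucleus, a Pglyrp1 UMI was found in 14% of gated nuclei (6.26 to 25.8%) and in 15.5% of nuclei gated on NK and T cell genes at D5, where the median depth was 1747 and 2091 UMIs. At D0 the thinned shares were 18.8% (7.21 to 36.4%) and 6.2%. Unthinned, they were 18.8% and 10.8% at D0 and 17.5% and 32.0% at D5. At D5 Pglyrp1 was at 168.5 CPM in the NK and T cell-gated nuclei, above its level in gated nuclei.

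Markers of other cells varied. The 15 classical monocyte genes summed to 4620 CPM against 2680 CPM in other nuclei at D0 and 4890 CPM against 4200 CPM at D5. Higher than in other nuclei in both libraries were 4 of them, Lyz2, Gda, F10 and Mgst1, and 3 were lower in both. Of all genes with at least 20 UMIs in the gated nuclei, 38.1% were higher in both. F10 and Mgst1 rested on 2 UMIs in each library, and the intervals of F10 included the level of other nuclei. Lyz2, the myeloid lysozyme gene, was at 2547 CPM against 772 CPM at D0 and 1222 CPM against 576 CPM at D5. The part of classical monocytes in the values below was not tested. The classical monocyte gene Ly6c2 stood below its level in other nuclei in both libraries, at 59.7 CPM against 99.2 CPM at D0 and 46.3 CPM against 72.1 CPM at D5. The chemokine receptor gene Ccr2 was at 219 CPM against 301 CPM at D0 and at 284 CPM against 393 CPM at D5. The interval of its log2 ratio to other nuclei included 0 at D0 (-1.46 to 0.38) but not at D5 (-0.90 to -0.07). Vcan, Chil3, F13a1, Fn1 and Hp, further classical monocyte genes, had no UMI at D0 and 1 to 7 UMIs at D5. At D5 Hp, with 7 UMIs, was at 40.5 CPM against 2.51 CPM in other nuclei, log2 4.01 (2.68 to 5.08), and the intervals of the other 4 included the level of other nuclei. Among 11 Kupffer cell and macrophage genes, 9 had no UMI at D0 and 7 none at D5, and Adgre1 and Cd68 held all of the 14 UMIs at D0 and 35 of 37 at D5. Of 11 neutrophil genes, 10 had no UMI at D0 and 8 none at D5, and of 12 hepatocyte genes 11 and 8 had none. These lists were low in other nuclei too, so a gene without UMIs is no sign of depletion. Kupffer cell and macrophage genes summed to 279 CPM against 168 CPM at D0 and 214 CPM against 178 CPM at D5. Neutrophil genes summed to 79.6 CPM against 36.8 CPM and 34.8 CPM against 71.0 CPM. Hepatocyte genes summed to 19.9 CPM against 37.8 CPM and 23.2 CPM against 25.4 CPM.

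In depth the libraries differed: the RNA layer held 44496348 UMIs in 16260 called barcodes at D0 and 94374499 UMIs in 27873 at D5. Barcodes present in both libraries numbered 591, and none of the gated nuclei carried one of them. The gated nuclei held 50251 UMIs at D0 and 172643 at D5, with medians of 1304 and 1747 per nucleus, below the medians of 1979 and 2863 in other nuclei.

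The share of gated nuclei was 0.224% (0.153 to 0.316%) at D0 and 0.214% (0.162 to 0.277%) at D5, each within the interval of the other. Because the gate counts UMIs, deeper nuclei reach it more easily. When every nucleus was first thinned to 1000 UMIs, 20 nuclei passed at D0, 0.14% (0.0856 to 0.216%), and 17 at D5, 0.0638% (0.0372 to 0.102%). Thinning lowered the D5 share more than the D0 share, and each thinned share lay outside the interval of the other, although the intervals overlapped. With at least 2000 UMIs per nucleus the order was the opposite. The share was then 0.0712% (0.0231 to 0.166%) from 5 nuclei at D0 and 0.112% (0.072 to 0.167%) from 24 at D5. The D0 interval included the D5 share, and this limit kept 7021 of 14282 nuclei at D0 and 21372 of 26633 at D5. D0 was higher with a gate sum of 5 or more, at 0.07% against 0.0225%. It was also higher without Scrublet doublet scores of 0.2 or higher, at 0.284% against 0.212%. The direction thus differed between settings. Fewer such nuclei and a lower level of the gate genes per nucleus cannot be told apart in these shares.

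Most nuclei that reached the gate sum were removed by the limits on other cell types. At D0, 178 nuclei had a sum of 3 or more and 146 were removed, and at D5 119 of 176 were. The limits exceeded most often were those for type 1 dendritic cell, NK and T cell and plasmacytoid genes at D0, in 109, 106 and 87 nuclei, and those for type 2 dendritic cell genes at D5, in 75 nuclei. A nucleus could exceed several limits.

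The gate was met in different ways. At D0 9 nuclei were kept on 1 gate gene alone, 8 on 2, 10 on 3 and 5 on all 4, and at D5 the numbers were 9, 32, 15 and 1. Of the single-gene nuclei, 6 at D0 and 4 at D5 carried Spn, which T cells and many other leukocytes also express. Ace was detected in 22 of 32 nuclei at D0 and 38 of 57 at D5, Spn in 24 and 29, Treml4 in 14 and 33 and Cd300e in 15 and 22.

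Nuclei on either side of the threshold differed in their program. Those with a gate sum of 2 that met all limits, 83 at D0 and 182 at D5, had a median program share of 76.8 and 49.0 per 10000 UMIs, while nuclei with a sum of 3, 19 and 38, had 113 and 120. With a sum of 4 or more, 13 and 19 nuclei had medians of 157 and 89.7. Pparg, which is not a program gene, was at 214, 406 and 1314 CPM at D0 for sums of 2, 3 and at least 4. At D5 it was at 153, 425 and 495 CPM. Single program genes did not always rise with the sum. Adgre4 was at 390, 344 and 1095 CPM at D0 and at 171, 500 and 480 CPM at D5. Cd36 was at 219, 281 and 493 CPM at D0 and at 130, 538 and 270 CPM at D5.

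Depth split the D5 nuclei. The 20 gated nuclei with 3000 or more UMIs carried 66.2% of all gated UMIs at D5, and their median program share was 69.3 per 10000 UMIs, against 134 in the 37 smaller nuclei. Scrublet doublet scores of 0.2 or higher were found in 13 of the 20 and in 2 of the 37. Over all gated nuclei, 3.12% at D0 and 26.3% at D5 had such a score, compared with 23.5% and 25.5% of other nuclei. The deep nuclei also differed in composition: MHC class II genes summed to 34300 CPM against 20100 CPM in the smaller nuclei, cell cycle genes to 1120 CPM against 275 CPM and type 2 dendritic cell genes to 1260 CPM against 498 CPM. At D0 1 nucleus with 10.5% of the UMIs was that deep. Whether these nuclei are doublets was not tested, and most ratios of named genes between days are therefore given for all gated nuclei and also for those under 3000 UMIs, 31 at D0 with 44972 UMIs and 37 at D5 with 58286.

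In these smaller nuclei the monocyte program summed to nearly the same level on both days, 12400 CPM at D0 and 13400 CPM at D5.

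Fabp4 and Pparg, genes of lipid handling, were among those with the largest ratios to other nuclei. Of the 22 scavenging and lipid genes, 14 were higher than in other nuclei in both libraries and 6 lower in both, and Mertk, Gpnmb and Stab1 had no UMI in gated nuclei. The share over all genes with at least 20 UMIs was 38.1%, a minimum that Msr1, Abca1, Lpl and Trem2 among the 14 did not reach. Fabp4, a fatty acid binding protein, reached 219 CPM against 4.57 CPM in other nuclei at D0 and 139 CPM against 2.72 CPM at D5, a log2 ratio of 5.58 (4.56 to 6.45) and 5.67 (5.01 to 6.28). Pparg, the nuclear receptor that controls fatty acid uptake and storage, was at 736 CPM against 19.6 CPM at D0 and at 452 CPM against 21.1 CPM at D5. Macrophage-like nuclei gated on C1q genes held Pparg at an intermediate 118 and 179 CPM, and Fabp4 at 0 and 5.52 CPM. After thinning to 1000 UMIs, Pparg was seen in 40.6% (23.7 to 59.4%) of gated nuclei at D0 and 49.1% (35.6 to 62.7%) at D5, against 0.326% and 0.931% of the NK and T cell-gated nuclei; unthinned, in 43.8% and 63.2% against 1.09% and 1.51%. Median depth was 1304 and 1747 UMIs in gated and 1424 and 2091 in NK and T cell-gated nuclei.

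Migration and surface receptor genes went both ways. Of the 22 trafficking genes, 9 were higher than in other nuclei in both libraries, 3 of them beyond their intervals, and 8 lower in both. Of all genes with at least 20 UMIs, 38.1% were higher in both, so the list as a whole lay near that share. Ccr2 and Selplg were among the lower ones. Adgre4 and Fcgr4, named below, belong to the monocyte program and not to the trafficking list. Cx3cr1 was at 159 CPM against 29.4 CPM at D0 and 57.9 CPM against 39.7 CPM at D5. Its log2 ratio at D5 was 0.54 (-0.52 to 1.43), and C1q-gated nuclei had it at 126 CPM on both days. S1pr5, the sphingosine-1-phosphate receptor used by patrolling monocytes to leave the bone marrow, had 6 UMIs at D0 and 7 at D5, or 119 CPM against 1.75 CPM in other nuclei and 40.6 CPM against 0.536 CPM. Adgre4, an adhesion G protein-coupled receptor related to F4/80, was at 617 CPM against 31.6 CPM at D0 and 492 CPM against 34.5 CPM at D5, and after thinning it was found in 43.8% and 50.9% of gated nuclei against 0.761% and 0.931% of NK and T cell-gated nuclei, or 56.2% and 64.9% against 2.28% and 3.96% unthinned. Fcgr4, an activating Fc receptor for IgG, had 199 CPM against 11.8 CPM and 110.1 CPM against 14.03 CPM, close to its level in C1q-gated nuclei of 121 and 88.2 CPM. In C1q-gated nuclei Adgre4 was intermediate, at 121 and 95.8 CPM, and S1pr5 had no UMI.

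Of 32 transcription factor genes, 16 were higher than in other nuclei in both libraries and 10 lower in both. The share higher in both over all genes with at least 20 UMIs was 38.1%. Among regulators, Cebpb, the C/EBP factor required for these monocytes, was at 1095 CPM against 140.5 CPM at D0 and 637 CPM against 126 CPM at D5. C1q-gated nuclei also had it at 704 and 773 CPM, so Cebpb marked both myeloid groups. The Notch target Hes1 was at 318 CPM against 32.8 CPM at D0 and 104 CPM against 12.2 CPM at D5. Spic, an ETS factor of macrophages, rested on 3 and 8 UMIs. Nr4a1, the orphan receptor at the head of the lineage, was closer to its level in other nuclei, with 1015 CPM against 510 CPM at D0 and 863 CPM against 542 CPM at D5. Its relatives Nr4a2 and Nr4a3 were lower than in other nuclei, at 139 CPM against 473 CPM and 139 CPM against 444 CPM at D0. At D5 they were at 324 CPM against 426 CPM and 353 CPM against 401 CPM. Zeb1 was lower too, at 39.8 CPM against 248 CPM at D0 and 75.3 CPM against 163 CPM at D5. Pou2f2, the octamer-binding factor Oct-2, was at 896 CPM against 78.2 CPM at D0 and at 417 CPM against 122 CPM at D5.

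Among the 20 genes with the highest smaller lower bound of the 2 libraries were further metabolic and signalling genes: Gsr, glutathione reductase, at 398 CPM against 42.1 CPM at D0 and 342 CPM against 44.9 CPM at D5; Pla2g7, which degrades platelet-activating factor, at 219 CPM against 21.3 CPM and 197 CPM against 19.5 CPM; and Zfyve9, an adaptor of TGF-β receptor signalling, at 259 CPM against 10.7 CPM and 243 CPM against 5.98 CPM. Fgd4 and Tiam2, exchange factors for the small GTPases Cdc42 and Rac, stood at 259 CPM against 16.2 CPM and 239 CPM against 14.8 CPM at D0 and at 151 CPM against 9.71 CPM and 92.7 CPM against 8.78 CPM at D5. Slc12a2, a sodium, potassium and chloride cotransporter, and Ldlrad3, an LDL receptor-like protein, completed the group together with Ear2, Cyp2ab1, Dnah12, Tmem26 and Fndc1. Ear2 belongs to a family of near-identical ribonuclease genes, so its reads may be split. Counts behind Cyp2ab1, Dnah12, Tmem26 and Fndc1 were 2 to 8 UMIs per library.

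Past 4-fold in both libraries were 30 of 2347 genes, or 1.28%, and 6 of the 24 program genes: Fabp4, Adgre4, Fcgr4, Hes1, Cebpb and Cd36. Since a gene could enter the 2347 through its UMIs in the gated nuclei, this share is a description. Itgax, which encodes the CD11c used in the sort, was not higher than in other nuclei, at 219 CPM against 242 CPM and 185 CPM against 239 CPM, nor was Cyfip1, an actin regulator.

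**Figure D2:**
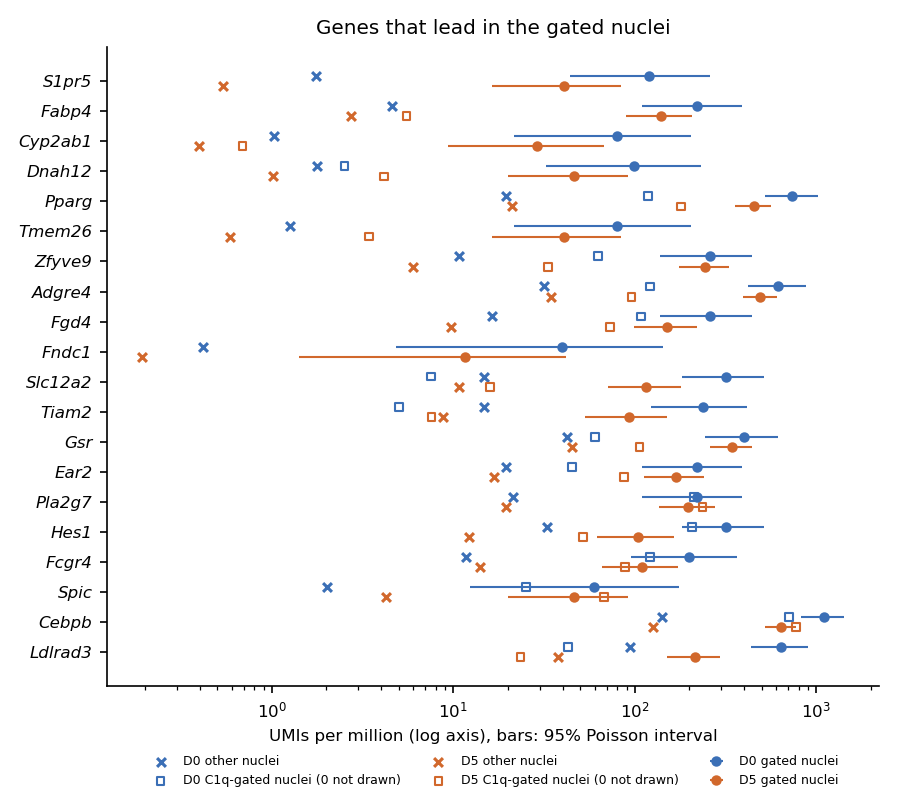
CPM on a log axis for the 20 leading genes in gated nuclei (filled points with exact 95% intervals), other nuclei (crosses) and nuclei gated on C1q genes (squares) at D0 and D5. In all 20 genes the intervals of the gated nuclei lie above the other nuclei of the same library, and at D5 the C1q-gated squares lie just below the gated points for Fcgr4 and above them for Pla2g7, Cebpb and Spic.

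Between days, 840 genes had at least 50 UMIs over both libraries in the gated nuclei. At D5 70 of them, 8.33%, were more than 2-fold higher than at D0 and 62, 7.38%, more than 2-fold lower. The median log2 ratio was 0.04, against -0.07 for the same genes in other nuclei, and 52.0% of genes were higher by any amount. TMM factors, which assume that most genes do not change, shift every log2 ratio by 0.33 upward (TMM log2 factor -0.33) and turn the split into 180 higher and 26 lower. In nuclei under 3000 UMIs, 341 genes reached 50 UMIs, of which 26 were more than 2-fold higher and 17 lower.

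Heat shock genes were lower at D5. Hspa1a, an inducible Hsp70 chaperone gene, had 98 UMIs at D0 and 31 at D5, or 1950 CPM and 179.6 CPM, a log2 ratio of -3.44 (-4.07 to -2.85). In other nuclei the ratio was -2.08, and in gated nuclei under 3000 UMIs -2.47 (-3.27 to -1.73). Hspa1b, a near-identical copy that can share reads with it, went from 2249 to 220.1 CPM, a ratio of -3.35 against -2.39 in other nuclei and -2.21 (-2.84 to -1.61) under 3000 UMIs. Of the 15 heat shock genes, 6 reached 50 UMIs: 5 were lower, 3 of them more than 2-fold, and Hsp90ab1 was the exception at 0.30 (-0.22 to 0.86), though under 3000 UMIs it was at -0.50 (-1.24 to 0.23). Their median of -1.13 compares with 0.04 for all 840 genes and with -0.89 for these genes in other nuclei, and it was -1.33 under 3000 UMIs, so other nuclei of the library showed the same direction. Free RNA, read from barcodes with 10 to 100 UMIs, gave -2.41 for Hspa1a.

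Immediate early genes, which respond quickly to many signals, had ratios below 0 in all 11 members with 50 UMIs, 2 of them more than 2-fold lower, with a median of -0.44 against -0.03 in other nuclei, -0.37 under 3000 UMIs and -0.11 with TMM factors. The intervals of Fos, Ier2, Atf3, Btg2, Zfp36 and Nr4a1 included 0, and in nuclei with at least 2 gate genes Btg2, Junb and Ier2 were at 0.34, 0.31 and 0.26. Btg2, Zfp36, Atf3 and Nr4a1, at -0.07 to -0.23, would be higher with TMM factors. Dusp1, a phosphatase that switches off MAP kinases, was at 1214 CPM at D0 and 487 CPM at D5, a ratio of -1.32 (-1.81 to -0.82) against -0.06 in other nuclei. It stood at -1.37 (-2.07 to -0.71) in nuclei under 3000 UMIs. Jun, an AP-1 subunit, was at -1.53 (-2.11 to -0.95) against -0.68 in other nuclei, but under 3000 UMIs its interval of -1.62 to 0.02 included no difference. Dusp1 therefore differed between days in the gated nuclei beyond counting error whether or not the deep nuclei were counted. It was also lower in C1q-gated nuclei, at -0.52, and in nuclei gated on type 2 dendritic cell genes, at -0.74. The differences between these ratios were not tested.

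Survival and transcription factor genes went both ways. Of 7 survival genes with 50 UMIs, 2 were higher and 5 lower, with a median of -0.38 against 0.15 in other nuclei and -0.22 under 3000 UMIs. Of 16 transcription factor genes, 4 were higher and 12 lower, with a median of -0.37 against -0.15 in other nuclei and -0.07 under 3000 UMIs; with TMM factors the medians were -0.05 and -0.03. Higher beyond their intervals were Nr4a2 at 1.22 (0.08 to 2.60) and Nr4a3 at 1.34 (0.21 to 2.72), orphan receptors related to Nr4a1, both at -0.37 (-2.11 to 1.37) in the smaller nuclei. Bcl2, an anti-apoptotic factor, was at 1095 CPM at D0 and 319 CPM at D5, or -1.78 (-2.35 to -1.21), and at -1.07 (-1.76 to -0.41) under 3000 UMIs, against -0.86 in other nuclei. Klf4 was at 1095 and 452 CPM, -1.28 (-1.79 to -0.75), and Klf2 at 637 and 319 CPM, -1.0 (-1.65 to -0.32), both Krüppel-like transcription factors. Under 3000 UMIs Klf4 was at -0.92 (-1.58 to -0.27) and Klf2 at -0.96 (-1.85 to -0.10). In other nuclei Klf4 was at -0.35 and Klf2 at -0.88. Bcl2, Klf4 and Klf2 were lower at D5 in the smaller nuclei too, but Klf2 was at -0.67 both with TMM factors (-1.32 to 0.01) and without Scrublet scores of 0.2 or higher (-1.41 to 0.07).

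The values of several other monocyte genes, though not of all, moved with the deep nuclei. Of the 16 program members with 50 UMIs, 6 were higher and 10 lower, 4 of them more than 2-fold, with a median of -0.21 against -0.01 in other nuclei and 0.28 in gated nuclei under 3000 UMIs, and with TMM factors it was 0.12. Cebpb was at -0.78 (-1.26 to -0.29), Pparg at -0.70 (-1.29 to -0.10) and Pou2f2 at -1.10 (-1.66 to -0.53) in all gated nuclei. Of these, Pparg is outside the program list. Under 3000 UMIs the same genes were at 0.22 (-0.32 to 0.77), 0.13 (-0.52 to 0.79) and -0.05 (-0.68 to 0.59). Nr4a1 was at -0.23 (-0.70 to 0.25), and at -0.02 (-0.57 to 0.55) in the smaller nuclei. The lower values of Cebpb, Pparg and Pou2f2 were thus not seen without the nuclei of 3000 or more UMIs. Without Scrublet scores of 0.2 or higher they were at 0.00, -0.33 and -0.38, with intervals that included 0. With at least 2 gate genes they stayed lower, at -0.72 (-1.24 to -0.18), -0.66 (-1.29 to -0.00) and -1.17 (-1.75 to -0.57). The program member Klf2 was at -0.96 (-1.85 to -0.10) under 3000 UMIs. Csf1r at -0.77 (-1.64 to 0.08), Itgal at -0.66 (-1.52 to 0.19) and Clec4a3 at -0.57 (-1.48 to 0.34) were also below 0 there, with intervals that included it. The 4 gate genes had ratios of -0.91 to -1.49, which the rule itself shapes because deeper nuclei reach 3 UMIs at a lower level.

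**Figure D3:**
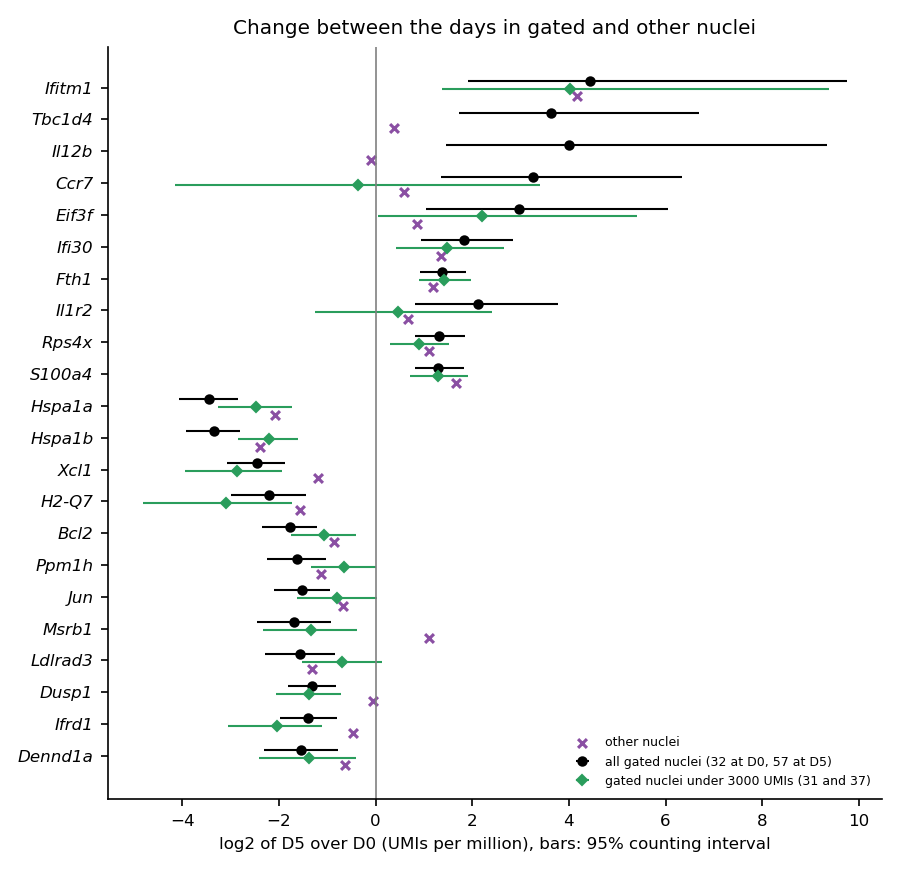
Log2 ratios of D5 over D0 with exact 95% intervals are plotted for named genes in all gated nuclei and in those under 3000 UMIs, with the ratio in other nuclei. Hspa1a, Bcl2 and Dusp1 lie below 0 in both sets of gated nuclei, Fth1 and S100a4 above 0 in both.

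MHC class II genes were higher at D5. All 6 with 50 UMIs were higher, 1 of them more than 2-fold, with a median of 0.90 against 0.67 in other nuclei and 0.55 under 3000 UMIs. For 5 of them the interval left out 0, and that of H2-DMa included it. Under 3000 UMIs H2-DMa was at -0.08 (-1.05 to 0.90) and H2-DMb1 at 1.09 (-0.67 to 3.19). Cd74, the invariant chain, was at 6129 CPM at D0 and 11050 CPM at D5, a ratio of 0.85 (0.68 to 1.03), and at 0.40 (0.17 to 0.62) in the smaller nuclei. On both days Cd74 was below other nuclei, which had 10240 and 15980 CPM, and free RNA carried it at 15350 and 20270 CPM. The part of free RNA and of the deep nuclei in these values was not tested.

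Ifitm genes, whose membrane proteins restrict virus entry, differed most in 1 member. Ifitm1 had 1 UMI at D0 and 74 at D5, or 19.9 and 429 CPM, and a ratio of 4.43 with a wide interval of 1.91 to 9.75, and 4.02 (1.38 to 9.39) under 3000 UMIs. The ratio was 4.17 in other nuclei and 4.11 in free RNA. Ifitm2 was at 1.0 (0.40 to 1.66) against 1.74 in other nuclei, and Ifitm3 at 0.41 (-0.09 to 0.93) against 1.37. In the smaller nuclei Ifitm2 was at 1.03 (0.32 to 1.79) and Ifitm3 at 0.09 (-0.55 to 0.74). By contrast, no member of the broader list of 30 interferon-induced genes in the files reached 50 UMIs, and their sum was at -0.54 (-0.93 to -0.14), against -0.55 in other nuclei. Of the 77 interferon UMIs at D0, 21 lay in the 1 deep nucleus, and under 3000 UMIs the sums were 1250 CPM at D0 and 1180 CPM at D5.

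Iron storage genes and several further genes were higher as well. Fth1, ferritin heavy chain, was at 856 CPM at D0 and 2230 CPM at D5, 1.38 (0.92 to 1.87), and Ftl1, the light chain, at 716 and 1187 CPM, 0.73 (0.21 to 1.28). Other nuclei gave 1.18 and 0.87. S100a4, a calcium-binding protein of motile cells, was at 1.30 (0.81 to 1.82) against 1.66. Rps4x, a ribosomal protein gene with processed pseudogenes, was at 1.31 against 1.10, Eif3f, from 2 UMIs at D0 and 54 at D5, at 2.97 (1.05 to 6.06) against 0.86, and Ifi30, from 11 and 133 UMIs, a lysosomal thiol reductase for antigen processing, at 1.82 (0.93 to 2.85) against 1.35. Each of these 6 genes was higher in other nuclei too. Under 3000 UMIs Fth1 was at 1.42 (0.89 to 1.97), Ftl1 at 1.59 (0.99 to 2.23), S100a4 at 1.30 (0.71 to 1.92), Rps4x at 0.90 (0.30 to 1.52), Eif3f at 2.21 (0.04 to 5.41) and Ifi30 at 1.47 (0.43 to 2.65).

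Cd36, Apoe and Gda were higher beyond their intervals in nuclei under 3000 UMIs but not in all gated nuclei. Cd36, the scavenger receptor for oxidised lipids, had 18 UMIs at D0 and 75 at D5, or 358 and 434 CPM, a ratio of 0.28 (-0.48 to 1.11), and 1.35 (0.54 to 2.22) under 3000 UMIs, against -0.67 in other nuclei. Apoe, an apolipoprotein, was at 0.50 (-0.08 to 1.13), and at 1.65 (1.05 to 2.29) in the smaller nuclei, against 0.77. Gda, guanine deaminase, was at 0.80 (-0.02 to 1.74), and at 1.75 (0.89 to 2.70) in the smaller nuclei, against -0.62. Over the scavenging and lipid list, 3 of the 6 members with 50 UMIs were higher and 3 lower, with a median of -0.30 against -0.01, a value smaller than the TMM shift, and 0.14 under 3000 UMIs. Without Scrublet scores of 0.2 or higher Cd36 was at 0.88 (0.09 to 1.75), Apoe at 1.05 (0.45 to 1.69) and Gda at 1.23 (0.38 to 2.18). Apoe and Gda also lay above 0 with TMM factors and after thinning, beyond their intervals. In nuclei with at least 2 gate genes all of them had intervals that included 0, with Cd36 at 0.06, Apoe at 0.43 and Gda at 0.75.

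Msrb1, methionine sulfoxide reductase, went in opposite directions in gated and other nuclei. It was at 597 CPM at D0 and 185 CPM at D5 in gated nuclei, -1.69 (-2.45 to -0.92), against 1.10 in other nuclei. In nuclei under 3000 UMIs it was at -1.33 (-2.33 to -0.38), still beyond its interval.

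The remaining genes that were lowest at D5 include lymphoid ones. Xcl1, a chemokine of NK and T cells, was at 1274 CPM at D0 and 232 CPM at D5, with 2190 and 1959 CPM in nuclei gated on NK and T cell genes and 1962 and 598 CPM in free RNA. H2-Q7, a class Ib gene with near-identical neighbours, was at 696 and 151 CPM. Their ratios were -2.46 (-3.07 to -1.87) and -2.21 (-3.00 to -1.44), against -1.20 and -1.56 in other nuclei. Under 3000 UMIs Xcl1 was at -2.87 (-3.94 to -1.93) and H2-Q7 at -3.10 (-4.81 to -1.73). Ppm1h, Ldlrad3, Ifrd1 and Dennd1a had ratios of -1.63 to -1.39, all lower in other nuclei as well, at -1.32 to -0.46. In the smaller nuclei Ifrd1 was at -2.03 (-3.06 to -1.10) and Dennd1a at -1.37 (-2.41 to -0.40), whereas the intervals of Ppm1h, at -0.66 (-1.34 to 0.01), and Ldlrad3, at -0.70 (-1.53 to 0.13), included 0. Over all gated nuclei, 12 NK and T cell genes summed to 1810 CPM at D0 and 1260 CPM at D5, against 8220 and 7890 CPM in the NK and T cell-gated nuclei, and their part in the Xcl1 values was not tested.

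Several genes with high ratios came from few deep nuclei. Of the 55 Il12b UMIs at D5, 48 lay in a single nucleus with 9947 UMIs and a doublet score of 0.273, and none in a nucleus under 3000 UMIs. Ccr7, the receptor of migratory dendritic cells, had 64 of its 66 UMIs in deep nuclei, and without them its log2 ratio of 3.26 turned to -0.37 (-4.16 to 3.41). Tbc1d4 had 83 of 85 UMIs and the decoy receptor gene Il1r2 65 of 74 UMIs in deep nuclei. Cell cycle genes summed to 11 UMIs at D0 and 144 at D5, of which 128 lay in deep nuclei, among them 35 of 36 UMIs of Top2a and 25 of 26 of Mki67.

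Open chromatin of the same nuclei was not used to choose them. The gated nuclei held 143860 fragments in shared peaks at D0 and 222777 at D5. Windows spanned all annotated start sites of a gene and reached 2 kb beyond the outermost ones. Where start sites lay far apart, a window also covered the stretch between them, with 12 shared peaks for Cd36 and 9 for Fgd4. Such windows are not limited to the start sites. They were compared with other nuclei, as CPM of fragments in shared peaks. Of 10114 windows with at least 10 fragments in gated nuclei, 37.9% were higher than in other nuclei in both libraries and 0.722% more than 2-fold higher. Of the 24 program genes 14 had such a window, and 12 of them were higher in both libraries, 3 more than 2-fold: Cd36, Hes1 and Cd274. Since a window could enter through its fragments in gated nuclei, these counts are descriptions; of the windows left out, those of Cx3cr1, Adgre4 and Clec4a3 were higher and those of Il17ra, Tnfrsf1b, Stap1 and Tspan13 lower than in other nuclei in both libraries. Summed over the whole program, without this minimum, the windows had a log2 ratio of 0.69 (0.50 to 0.88) at D0 and 0.51 (0.35 to 0.67) at D5, from 228 and 325 fragments.

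The summed accessibility around program genes was thus higher beyond counting error in each library. Nr4a1 alone held 44 of the 228 fragments at D0 and 71 of the 325 at D5. Windows of the genes named for their change between days also summed above other nuclei at D0, at 0.25 (0.06 to 0.43). At D5 their sum was at 0.07 (-0.09 to 0.22). Around Cd36 accessibility was 132 CPM against 56.1 CPM in other nuclei at D0 and 193 CPM against 55.0 CPM at D5, and C1q-gated nuclei had similar values of 150.5 and 145 CPM. Hes1 had 132 CPM against 58.2 CPM and 117 CPM against 48.1 CPM. Cd274, which encodes the checkpoint ligand PD-L1, had 90.4 CPM against 38.5 CPM and 67.3 CPM against 33.3 CPM, a log2 ratio of 1.23 (0.32 to 2.01) and 1.01 (0.18 to 1.74).

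Among the 20 leading RNA genes, 9 had at least 10 fragments, 8 of these were higher in both libraries, and 4 more than 2-fold: Cyp2ab1, Pparg and Fgd4, beside Hes1. Cyp2ab1 had 69.5 CPM against 5.57 CPM at D0 and 40.4 CPM against 5.17 CPM at D5, log2 3.64 (2.57 to 4.53) and 2.97 (1.83 to 3.90), from 10 and 9 fragments. Its window was thus open in the gated nuclei although its RNA rested on 4 and 5 UMIs. Pparg had 76.5 CPM against 24.9 CPM and 67.3 CPM against 29.3 CPM, and Fgd4 125 CPM against 24.8 CPM and 76.3 CPM against 31.0 CPM. C1q-gated nuclei had 54.3 and 74.2 CPM around Pparg and 79.2 and 79.8 CPM around Fgd4, at D5 slightly more than the gated nuclei. No shared peak fell into the windows of Fabp4 and Fndc1.

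For the gate genes themselves, Cd300e had 55.6 CPM against 3.81 CPM at D0 and 17.96 CPM against 3.90 CPM at D5, and Ace 34.8 CPM against 11.2 CPM and 44.9 CPM against 10.1 CPM, from 4 to 10 fragments per library. Treml4 was higher at D0 only and Spn in neither library. Genes named for their change between days showed less: of their 15 windows with 10 fragments, 9 were higher in both libraries, 3 lower in both and none more than 2-fold higher in both.

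**Figure D4:**
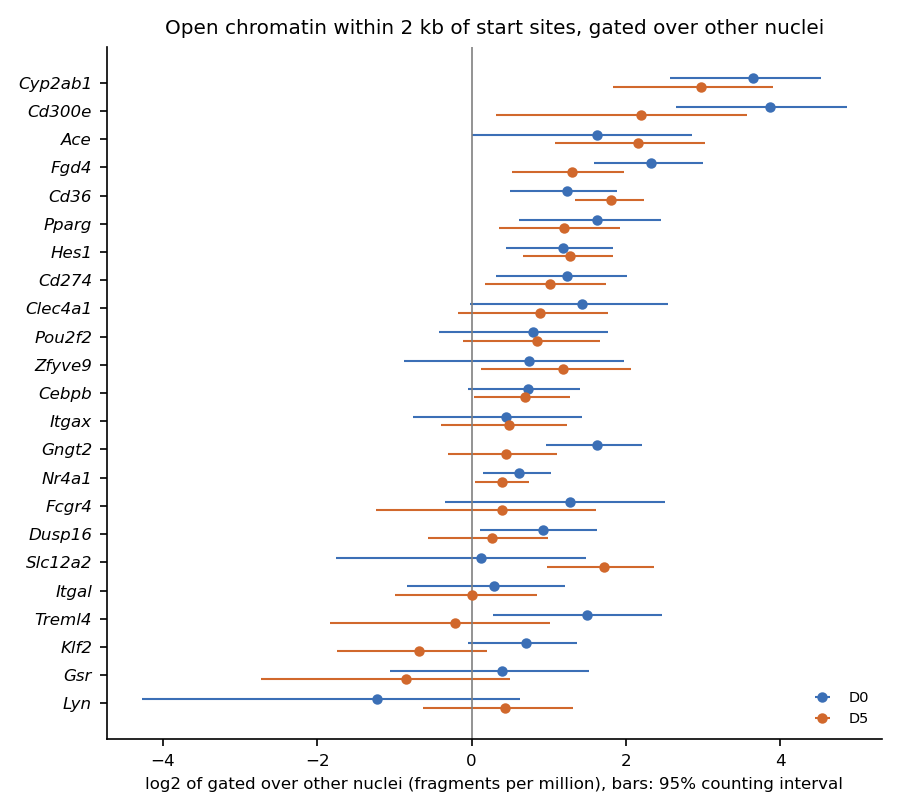
For genes with at least 10 fragments in the gated nuclei of both libraries together, points show the log2 ratio of fragments in gated over other nuclei. Exact 95% intervals are drawn for D0 and D5. Windows span all annotated start sites of each gene, with the stretch between them, and reach 2 kb beyond the outermost ones. Cyp2ab1 and Cd300e lie above 2 in both libraries, and Cd36, Hes1, Cd274, Pparg and Fgd4 at about 1 or more.

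The promoters of 4 of these genes are printed because their windows were among those most open in the gated nuclei relative to other nuclei. They are RefSeq sequences of build GRCm38.p6, 250 bases before to 50 after the start, 5′ to 3′ on the strand of the gene. Capitals mark matches on either strand to GAGGAAG (PU.1, found in 13.6% of 32851 promoters of the same length), AAGGTCA (NR4A factors, 4.72%), TGTGGTT (RUNX factors, 5.27%) or TTGCNNAA (C/EBP factors, 10.8%); no 2 matches overlapped here.
Ace, chr11:105967698-105967997, plus strand: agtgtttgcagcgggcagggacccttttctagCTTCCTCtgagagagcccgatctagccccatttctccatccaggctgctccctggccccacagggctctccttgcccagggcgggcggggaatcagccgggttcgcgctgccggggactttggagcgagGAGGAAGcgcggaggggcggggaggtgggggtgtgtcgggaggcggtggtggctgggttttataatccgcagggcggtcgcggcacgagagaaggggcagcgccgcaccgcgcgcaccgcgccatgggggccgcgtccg
Cd300e, chr11:115061990-115062289, minus strand: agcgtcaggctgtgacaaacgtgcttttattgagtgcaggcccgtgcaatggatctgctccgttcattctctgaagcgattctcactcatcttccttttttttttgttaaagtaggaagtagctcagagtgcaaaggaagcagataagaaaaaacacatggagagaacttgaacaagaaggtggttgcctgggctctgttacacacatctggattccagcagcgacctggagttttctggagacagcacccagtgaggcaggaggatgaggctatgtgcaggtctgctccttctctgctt
Cd36, chr5:17835847-17836146, minus strand: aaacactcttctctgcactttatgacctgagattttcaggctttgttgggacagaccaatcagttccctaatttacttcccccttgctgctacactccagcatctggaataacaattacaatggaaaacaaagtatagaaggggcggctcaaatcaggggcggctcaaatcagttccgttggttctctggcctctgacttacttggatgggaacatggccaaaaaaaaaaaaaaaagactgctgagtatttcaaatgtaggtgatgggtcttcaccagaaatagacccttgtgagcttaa
Cyp2ab1, chr16:20325355-20325654, minus strand: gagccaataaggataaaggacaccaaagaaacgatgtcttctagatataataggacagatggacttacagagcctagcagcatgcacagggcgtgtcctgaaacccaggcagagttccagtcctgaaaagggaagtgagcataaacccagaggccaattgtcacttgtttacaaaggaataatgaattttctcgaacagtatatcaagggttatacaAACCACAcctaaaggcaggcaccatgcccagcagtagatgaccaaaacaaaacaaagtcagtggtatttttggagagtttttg
In this window Ace held 2 matches to the PU.1 letters, 1 on each strand, and Cyp2ab1 1 match to the RUNX letters, while the windows of Cd300e and Cd36 held none of the 4 motifs. The same windows of Cd274, Pparg and Fgd4, which are not printed, held none either. The shared peak over the promoter had 27.8 CPM against 5.43 CPM in other nuclei at D0 and 8.98 CPM against 5.32 CPM at D5 for Ace, from 4 and 2 fragments, and 27.8 CPM against 2.94 CPM and 13.5 CPM against 3.07 CPM for Cyp2ab1, from 4 and 3. For Cd36 it had 13.9 CPM against 3.48 CPM and 31.4 CPM against 2.62 CPM, from 2 and 7 fragments. For Cd300e it had 13.9 CPM against 2.73 CPM and 4.49 CPM against 2.85 CPM, from 2 and 1. For Fgd4 it had 6.95 CPM against 5.48 CPM and 4.49 CPM against 5.14 CPM, from 1 fragment in each library. A match describes the letters and is no evidence of binding.

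Single peaks gave few differences. Of 3965 shared peaks with at least 20 fragments in gated nuclei, 3 were more than 4-fold higher than in other nuclei in both libraries, 0.0757%. The highest lower bounds were at chr11:43395042-43395976 in the files' build mm10, 9560 bases from the start site of Gm12148, with 48.7 CPM against 6.34 CPM at D0 and 62.8 CPM against 5.71 CPM at D5, and at chr11:67559246-67560093 over a start site of Gas7, an actin-binding protein, with 55.6 CPM against 6.28 CPM and 53.9 CPM against 9.38 CPM. A peak 8327 bases from the start site of Litaf, a lysosomal regulator of TNF expression, had 55.6 CPM against 11.2 CPM and 53.9 CPM against 14.2 CPM. Others of the 8 leading peaks lay near Gm37350, Gm11670 and Gm15555 or over the multi-copy loci Gm42418 and AY036118, where reads cannot be assigned with certainty.

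Between days, 104 peaks had at least 50 fragments, of which 0.0% were more than 2-fold higher at D5 and 0.962%, 1 peak, more than 2-fold lower. The latter, over a start site of Hnrnpul1, was at 216 CPM at D0 and 108 CPM at D5, -1.0 (-1.83 to -0.18), against 0.09 in other nuclei. Rab1a had the highest lower bound, with 97.3 and 184 CPM, 0.92 (0.01 to 1.91), and peaks at Amz2, Cic and Hdgfl2 had 0.51 to 0.65 with intervals that included 0. Peaks at the multi-copy loci Gm26917 and Gm42418 were at -0.79 (-1.16 to -0.42) and -0.59 (-0.91 to -0.26), against -0.20 and -0.25 in other nuclei. At this depth a 2-fold difference in accessibility was not detectable at most peaks.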

How the data were processed

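The RNA matrices of both libraries and their joint RNA and ATAC matrices were used. The deposited matrices hold raw counts, UMIs per gene and transposition cut sites per peak, made by the authors with Cell Ranger ARC 2.0.2 on build mm10 per the submitters' processing notes; headers of the RNA matrices name cellranger 6.0.2. Nuclei of the RNA and the joint matrix were matched where every gene had the same count. Cut sites were divided by 2 and rounded up to fragments per peak and nucleus, and peaks of both libraries that overlapped by at least 1 base were merged into 127216 shared regions. Peaks had been called in each library separately.

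UMIs or fragments were summed over nuclei of a library and scaled to CPM. Intervals were Poisson for a level, Clopper-Pearson for a share and conditional binomial for a ratio, all exact, checked on simulated data. The simulated sums were Poisson counts, so the check does not cover UMIs that cluster within single nuclei. Computation used Python 3.11.15, numpy 2.4.6, scipy 1.17.1 and scanpy 1.11.5. No doublets were removed; Scrublet, with an expected rate of 0.1, served as an alternative. Named genes were the 12 with the highest lower and the 12 with the lowest upper bound of D5 over D0, the 20 with the highest smaller lower bound over other nuclei, and list members, without gate, limit, mitochondrial, Gm and Rik genes; 8 and 8 peaks were named likewise. Of these genes, 2 are not reported here. Other genes are named from their values. Members and lists were chosen with earlier results of these data known.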

Additional observations from a re-analysis of the deposited data

Results flagged for a closer look

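For 108 genes named or listed with at least 50 UMIs, the D5 over D0 ratio in gated nuclei was set beside that in other nuclei. In 9 of them the ratio was above 0 in one group of nuclei and below 0 in the other, both with intervals that left out 0. With 1 library per day the difference itself was not tested. Values are the log2 ratio in gated nuclei minus that in other nuclei. Positive differences were 4.09 for Il12b, 1.6 for Tcf4, 1.49 for Nr4a3 and 1.37 for Nr4a2. Negative ones were -2.79 for Msrb1, -2.12 for Clec4a3, -1.95 for Csf1r, -1.75 for Pou2f2 and -1.14 for Bcl2a1d. Bcl2a1d hardly differed between days in other nuclei, at 0.03 (0.0 to 0.07), against -1.1 in gated nuclei. It was also lower at D5 in C1q-gated nuclei, at -0.92, and in nuclei gated on type 2 dendritic cell genes, at -0.84. In the same 2 groups Msrb1 was at 0.94 and 0.86, Clec4a3 at 0.15 and 0.57. Csf1r was at 0.06 and -0.07 there and Pou2f2 at -0.04 and -0.05.

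Restricted to gated nuclei under 3000 UMIs, the D5 over D0 ratio itself was -1.33 for Msrb1 and -1.89 for Bcl2a1d, beyond their intervals. It was -0.77 for Csf1r, the receptor for the survival signal of monocytes, -0.57 for Clec4a3, -0.05 for Pou2f2, 0.5 for Tcf4 and -0.37 for both Nr4a2 and Nr4a3. Il12b had no UMI there at D5. Without Scrublet scores of 0.2 or higher Tcf4 was at -0.20 (-1.09 to 0.73). With TMM factors Clec4a3 was at -0.79 (-1.56 to 0.02) and Bcl2a1d at -0.77 (-1.62 to 0.11). Bcl2a1d and Clec4a3 have close paralogs that can share reads.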

How the results depend on the processing

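No paired analysis was possible because each day is 1 library. Settings were changed one at a time; the restriction to nuclei with at least 2 gate genes or under 3000 UMIs was chosen after seeing the data. Of the comparisons' values recomputed under alternatives, 82 stayed within the spread of members or counting interval, or within 1.5 times for counts, and 41 moved by more. Shares in percent at D0 and D5 were 0.0712 and 0.112 with at least 2000 UMIs, 0.14 and 0.0638 after thinning before the rule, and 0.07 and 0.0225 with a gate sum of 5. Genes more than 2-fold higher and lower at D5 numbered 180 and 26 with TMM factors, 259 and 250 from 20 UMIs, 15 and 1 from 200 UMIs, 34 and 3 with a gate sum of 5, 20 and 9 with nuclei thinned to 1000 UMIs, 37 and 23 without Scrublet scores of 0.2 or higher, 46 and 39 with 2 gate genes, and 26 and 17 under 3000 UMIs; except with TMM factors, these settings change how many genes are tested. The monocyte program median of -0.21 was 0.12 with TMM factors and 0.28 under 3000 UMIs. With a gate sum of 5 list medians were -0.95 for the monocyte program, -1.46 for scavenging, -1.13 for cytokines and 2.05 for MHC class II, which was 1.23 with TMM factors and 0.55 under 3000 UMIs. Under 3000 UMIs, genes more than 4-fold over other nuclei numbered 52 and windows more than 2-fold over other nuclei 110. Peaks more than 4-fold over other nuclei were 1 with at least 2000 peak counts per nucleus, 1 against Cd209a and Mgl2-gated nuclei, 0 with a gate sum of 5 and 0 under 3000 UMIs. Peaks more than 2-fold lower at D5 were 2 with a gate sum of 5 and 0 with 2000 peak counts, from 100 fragments, with TMM factors (1 higher), with 2 gate genes and under 3000 UMIs. Of single genes, Il12b turned to -0.69 with a gate sum of 5 and to -0.94 without high Scrublet scores, and Ccr7 to -0.37 under 3000 UMIs. The cause of the other moves was not tested. With 1304 and 1747 UMIs per median nucleus and 1 library a day, intervals are wide for genes of few UMIs.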

Other observations

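The cytokine genes Ccl3 and Il1b had opposite values. Ccl3, a chemokine of activated leukocytes, had 33 UMIs at D0 and 14 at D5 in the gated nuclei, or 657 and 81.1 CPM, against 326 and 161 CPM in other nuclei. Il1b, the inflammasome cytokine, was at 498 and 973 CPM in gated nuclei, a log2 ratio of 0.97 (0.36 to 1.64) and of 1.17 (0.48 to 1.90) under 3000 UMIs, and at 966 and 1568 CPM in other nuclei. Ccl3 was chosen after its values were seen, since it did not reach 50 UMIs.

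In C1q-gated nuclei Lyz2 was at 5366 and 4964 CPM. In gated nuclei its D5 over D0 log2 ratio was -1.06 (-1.38 to -0.73), and under 3000 UMIs -0.16 (-0.52 to 0.19). Of the Fc receptor and paired receptor genes, 3 of 11 with 50 UMIs were higher and 8 lower at D5, with a median of -0.41 against 0.26 in other nuclei, and of -0.03 under 3000 UMIs, -0.08 with TMM factors and -0.10 without Scrublet scores of 0.2 or higher. Fcer1g, the signalling chain of Fc receptors, was at 1453 and 1095 CPM, and under 3000 UMIs its ratio was -0.09 (-0.57 to 0.38). Trafficking genes had a median of 0.01 over 7 members, with Itgal, an integrin chain of LFA-1, at 637 and 272 CPM and at 187 and 82.0 CPM in other nuclei, and a ratio of -0.66 (-1.52 to 0.19) under 3000 UMIs.

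Irf8, a transcription factor of dendritic cells and monocytes, was lower in gated than in other nuclei on both days, at 418 CPM against 935 CPM at D0 and 243 CPM against 517 CPM at D5. Its D5 over D0 ratio was -0.78 (-1.57 to 0.05) in all gated nuclei, -0.85 in other nuclei and -0.53 (-1.64 to 0.69) with at least 2 gate genes. Under 3000 UMIs it was -1.89 (-3.37 to -0.59), from 20 and 7 UMIs. Runx1, a factor of blood cell development, was at -0.32 (-0.83 to 0.21) in all gated nuclei and at -0.98 (-1.73 to -0.24) under 3000 UMIs.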
